A study of Homo sapiens with 4 samples.

Results

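The cytosolic and mitochondrial heat shock proteins described here were 10 genes of the 24462 counted: HSPA1A, HSPA1B, HSPA8, HSPH1, DNAJB1, HSP90AA1, HSP90AB1, HSPD1, HSPE1 and HSPB1. They were taken from the count tables by gene symbol, with repeated symbols summed. The study grew HepG2, an established line of human hepatocellular carcinoma, in RPMI with fetal bovine serum and penicillin streptomycin, and sequenced 4 QuantSeq 3′ libraries of total RNA, 1 library per condition. Cells had received DMSO, the solvent control, or PD0332991, a kinase inhibitor of CDK4 and CDK6, or had been transfected with scrambled siRNA or with siRNAs against both CDK4 and CDK6 (CDK4/6 KD). For the cells that were sequenced, the inhibitor dose and the exposure times are not given in the sources used here. Every condition was 1 library of 1 cell line, so that differences could not be set against a spread between replicates and carry no p-value.

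Heat shock proteins are molecular chaperones that help other proteins fold, keep damaged proteins from clumping and hand clients on to one another. In the cytosol, HSP70 proteins bind exposed stretches of a client with the help of J-domain partners and exchange factors, and the HSP90 pair then takes over clients such as kinases and steroid receptors; in mitochondria HSP60 and its HSP10 lid enclose proteins in a barrel. Many of these genes are switched on by heat shock factors, which bind repeats of a short element in their promoters. CDK4 itself is a textbook client of HSP90 and its kinase partner CDC37.

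The promoters of the members are shown first, for their heat shock element letters. The members were named as heat shock genes, many of which are switched on through such elements. High shares of the letters among them are therefore no independent support and are given as a description. A gene with several windows was counted where any of them held the letters. The sequences are from RefSeq (GRCh38.p14), in which all 10 members had promoter windows of 250 bases before to 50 bases after a gene start, 16 windows in all. A stretch of 2 element units (GAANNTTC or TTCNNGAA, each of which reads the same on both strands) was present in 8 of the 10 members, compared with 16.2% of 27305 genes with a window and 13.5% of 35116 windows. A stretch of 3 units (GAANNTTCNNGAA or TTCNNGAANNTTC, each the reverse complement of the other and each containing the 2-unit letters) was present in 4 members, HSPA8, HSP90AA1, HSP90AB1 and HSPD1, compared with 0.608% of genes. These letters were not in the windows of HSPH1 and HSPE1. The stretches lay at chr6:31815426-31815455 (plus strand) for HSPA1A, chr6:31827622-31827651 (plus) for HSPA1B, chr11:123062170-123062199 (minus) for HSPA8, chr19:14518426-14518455 (minus) for DNAJB1, chr14:102087104-102087133 (minus) for HSP90AA1, chr6:44247823-44247852 (plus) for HSP90AB1, chr2:197500061-197500090 (minus) for HSPD1 and chr7:76302480-76302509 (plus) for HSPB1. In GENCODE 29 the HSPA1A, HSPA1B and HSPB1 stretches were between genes, those of DNAJB1 and HSP90AB1 were in introns of longer transcripts of the same gene, that of DNAJB1 also within the opposite-strand gene TECR, and those of HSPA8, HSP90AA1 and HSPD1 fell in untranslated exons of other transcripts of the gene, that of HSPD1 in 1 of HSPE1 as well. Further matches in the windows of HSPA8, DNAJB1 and HSP90AB1 are not shown. The listed stretch, 1 per gene, is printed 5′ to 3′ on the strand of its gene, with the element letters in capitals.
HSPA1A: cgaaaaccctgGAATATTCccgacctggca
HSPA1B: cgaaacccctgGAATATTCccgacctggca
HSPA8: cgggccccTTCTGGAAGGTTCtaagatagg
DNAJB1: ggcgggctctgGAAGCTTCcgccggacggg
HSP90AA1: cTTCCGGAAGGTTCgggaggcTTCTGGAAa
HSP90AB1: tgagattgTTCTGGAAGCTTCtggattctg
HSPD1: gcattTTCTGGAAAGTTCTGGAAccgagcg
HSPB1: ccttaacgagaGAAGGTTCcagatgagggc

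HSPA1A and HSPA1B, neighbouring genes on chromosome 6, shared 277 of 299 promoter bases (92.6%). HSPD1 and HSPE1 are transcribed away from each other on chromosome 2, and the capital run of HSPD1, 18 bases long, lay 294 bases before the HSPE1 start, 44 bases outside the HSPE1 window. The matches are descriptions of letters, and no binding was measured.

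The libraries held between 8983848 and 11176880 reads, and levels are given as CPM, reads of a gene per 1000000 reads of its library after TMM scaling, whose factors ran from 0.957 to 1.03. The knockdown label was checked first. CDK4 was at 301 CPM in DMSO, 257 in PD0332991, 354 in scrambled siRNA and 71.9 in CDK4/6 KD. CDK6 was at 515, 479, 536 and 129 CPM in the same order. Both targets were thus lowest in the CDK4/6 KD library, at 0.203 times (95% counting interval 0.188 to 0.219) and 0.241 times (0.228 to 0.256) scrambled siRNA. The last 500 bases of CDK4 overlap the opposite-strand gene TSPAN31 throughout, and the strand setting of the counts is not given in the sources used here. All 12 liver markers had at least 10 reads in each library, and their summed level ran from 22342 to 28960 CPM. Of 15 keratinocyte markers, between 5 and 11 had at least 10 reads, and their sum was 387 CPM in DMSO, 475 in PD0332991, 584 in scrambled siRNA and 365 in CDK4/6 KD. Most of that sum came from SFN, PERP and KRT10, while KRT5 and KRT14, which define the basal cells, had 2, 113, 13 and 43 reads and 9, 249, 31 and 74 reads in that order. The 8 fibroblast markers summed to 49.9, 80.5, 8.88 and 23.1 CPM. Of 8 blood and endothelial markers, LYZ and CD68 alone had at least 10 reads, their list sum was 751, 517, 1035 and 509 CPM, and CD3E, HBB and CDH5 were at 0 throughout. The part of these markers in the results was not tested, and in bulk RNA fewer cells of a type and less RNA per cell cannot be told apart.

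Each comparison is a ratio of 2 libraries after adding 0.5 reads, with an exact 95% Clopper-Pearson interval on the split of the reads. The interval covers counting error only and says nothing of the spread between cultures. A gene was called at 1.5-fold, and was considered where 1 of the libraries compared held 10 or more of its reads. All 10 members passed, with no fewer than 329 reads in any library.

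PD0332991 against DMSO addressed what drug inhibition of CDK4 and CDK6 did to these transcripts. All 10 members were lower in the PD0332991 library, although HSP90AB1 turned higher under quantile normalization, and 6 were called at 1.5-fold: HSPA1A, HSPA1B, HSPA8, HSPH1, HSP90AA1 and HSPE1. Over all 13443 genes tested 15.1% were at least 1.5-fold lower, and over the 3774 well-counted genes, whose 2 libraries averaged 500 reads or more as most members did, the share was 10.7%. No member was 1.5-fold higher (background 16.8%) and none was 2-fold lower (background 7.06%). The counting intervals of all 10 lay below 1, which 28.6% of all genes and 40.4% of the well-counted genes did. The median log2 fold change of the members was -0.62, beside 0.018 over all genes and -0.023 over the well-counted genes. Keratinocyte markers differed in the same pair of libraries: 8 of the 11 considered were at least 2-fold higher with PD0332991 and SFN was lower, at a median log2 fold change of 3.17, with KRT14 at 9 and 249 reads, KRT6A at 9 and 150 and KRT17 at 15 and 139. Their part in the members' result was not tested.

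CDK4/6 KD against scrambled siRNA addressed loss of the kinases themselves. Here the members split. HSPB1 was called higher and HSPA8 lower, 1 of 10 in each direction. Of 13617 genes, 19.4% passed 1.5-fold upward and 17.4% downward, and of 4415 well-counted genes 9.01% and 14.6%, so that the members' counts were no larger a share than the background over all genes. At 2-fold no member was called, against 9.19% of genes higher and 7.62% lower. The counting interval lay below 1 for 7 members (background 31.9%, and 45.9% among well-counted genes, with HSP90AB1 at 0 under quantile normalization), above 1 for HSP90AA1 and HSPB1 (background 30%), and included 1 for HSPE1. The median log2 fold change was -0.24, beside -0.0036 over all genes and -0.074 over the well-counted genes.

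The 2 control libraries were compared to show how far the members differed without CDK4/6 inhibition, although solvent and transfection differ between them. No member was 1.5-fold apart, against 29.1% of 13303 genes in either direction and 16.3% of 4155 well-counted genes. Of the members, 6 were higher in scrambled siRNA (background of intervals above 1, 28.3%) and 4 lower (28%), each with an interval excluding 1 and with HSP90AB1 turning lower under quantile normalization, and the median log2 fold change was 0.13. Differences of up to 1.32-fold, the value of HSPH1, therefore stood between libraries that had no inhibitor and no siRNA against the kinases.

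**Figure D1:**
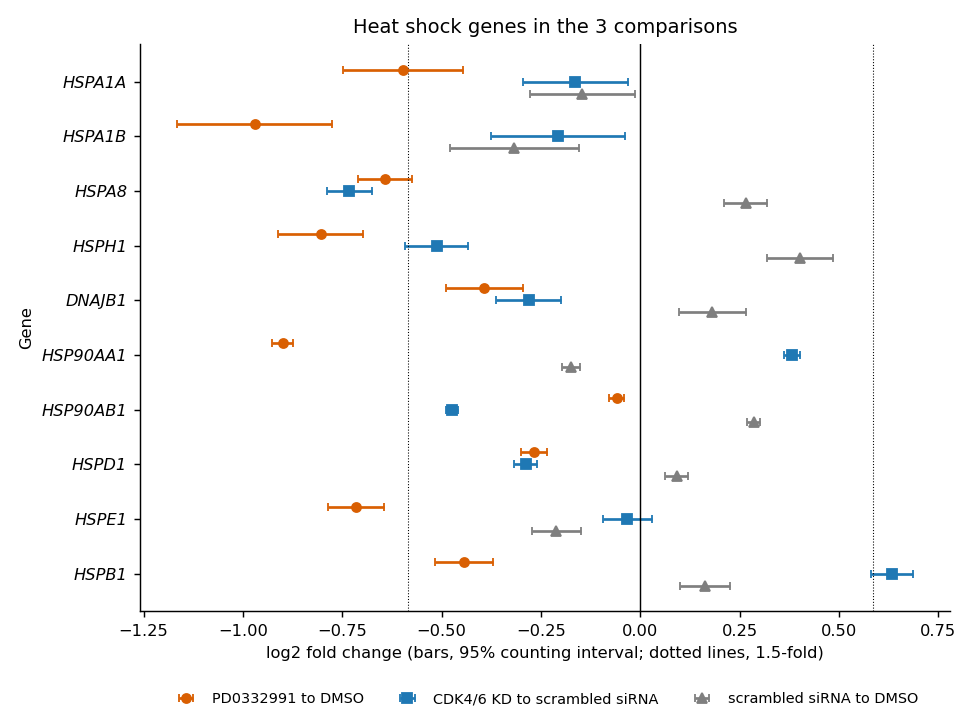
Log2 fold change (horizontal axis) of each of the 10 genes (vertical axis) in the 3 comparisons, with bars for the 95% counting interval and dotted lines at 1.5-fold. All 10 orange circles (PD0332991 to DMSO) are left of 0, of which HSP90AB1 alone turns positive under quantile normalization, while among the blue squares (CDK4/6 KD to scrambled siRNA) HSP90AA1 and HSPB1 are right of it; grey triangles compare the control libraries.

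HSPA1A and HSPA1B encode the stress-inducible HSP70, nearly the same protein from neighbouring genes (chr6:31815464-31817946 and chr6:31827735-31830255, plus strand, GRCh38). HSPA1A was at 100.1 CPM in DMSO, 66.2 in PD0332991, 90.5 in scrambled siRNA and 80.7 in CDK4/6 KD. HSPA1B was at 70.8, 36.1, 56.8 and 49.2 CPM in the same order. Both genes were thus highest in DMSO and lowest in PD0332991. The separate counting intervals of their CDK4/6 KD and scrambled siRNA levels overlapped, although the intervals of the ratios, given below, excluded 1. PD0332991 to DMSO was 0.662-fold (0.596 to 0.734) for HSPA1A, only just past the call and not past it against scrambled siRNA (0.732-fold, 0.660 to 0.811), and 0.511-fold (0.445 to 0.584) for HSPA1B. CDK4/6 KD to scrambled siRNA was 0.893-fold (0.815 to 0.978) and 0.866-fold (0.771 to 0.973). In the 500 bases at the 3′ end of HSPA1A, 17.6% of 75-base windows also occur in HSPA1B or in AL671762.1. Reads there could have been split between them. AL671762.1 overlaps HSPA1B on the same strand and covers its 3′ end. The tables listed both symbols 5 times, with all reads on 1 entry. Per read of HSPA1B there were 1.41 reads of HSPA1A in DMSO, 1.83 in PD0332991, 1.59 in scrambled siRNA and 1.64 in CDK4/6 KD.

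HSPA8 (chr11:123057489-123063230, minus strand) encodes the constitutive HSP70 that serves unstressed cells. It had 501 CPM in DMSO, 321 in PD0332991, 602 in scrambled siRNA and 363 in CDK4/6 KD. No pair of these levels overlapped in counting error. It was the only member called in both inhibition comparisons, at 0.641-fold (0.611 to 0.671) with PD0332991 and 0.602-fold (0.579 to 0.626) with CDK4/6 KD. Scrambled siRNA itself was at 1.20-fold (1.16 to 1.25) DMSO, and against DMSO the CDK4/6 KD level was 0.723-fold (0.693 to 0.754), which does not pass the call.

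HSPH1 (chr13:31134974-31162388, minus strand) encodes HSP110, an exchange factor that reloads HSP70 with ATP. Its levels were 211 CPM in DMSO, 121 in PD0332991, 279 in scrambled siRNA and 195 in CDK4/6 KD. The PD0332991 library was again the lowest. The separate intervals of DMSO and CDK4/6 KD overlapped, although the interval of their ratio, given below, excluded 1. PD0332991 to DMSO was 0.573-fold (0.531 to 0.617). CDK4/6 KD to scrambled siRNA was 0.701-fold (0.663 to 0.741), which was not called, and to DMSO it was 0.926-fold (0.871 to 0.985). The choice of control library thus moved the HSPH1 ratio of CDK4/6 KD from 0.701 to 0.926.

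DNAJB1 (chr19:14514770-14529770, minus strand) encodes HSP40, the J-domain partner that stimulates the HSP70 ATPase. It was at 218 CPM in DMSO, 166 in PD0332991, 248 in scrambled siRNA and 204 in CDK4/6 KD, an order like that of HSPH1 over a narrower span (1.49-fold from lowest to highest, against 2.31-fold). It was not called in any comparison, with 0.762-fold (0.712 to 0.815) for PD0332991 and 0.823-fold (0.778 to 0.870) for CDK4/6 KD. The inducible member of the machinery, HSPA1A with HSPA1B, held 0.341 reads per HSPA8 read in DMSO, 0.319 in PD0332991, 0.244 in scrambled siRNA and 0.358 in CDK4/6 KD. This ratio, which no library scaling can alter, was lowest in scrambled siRNA.

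**Figure D2:**
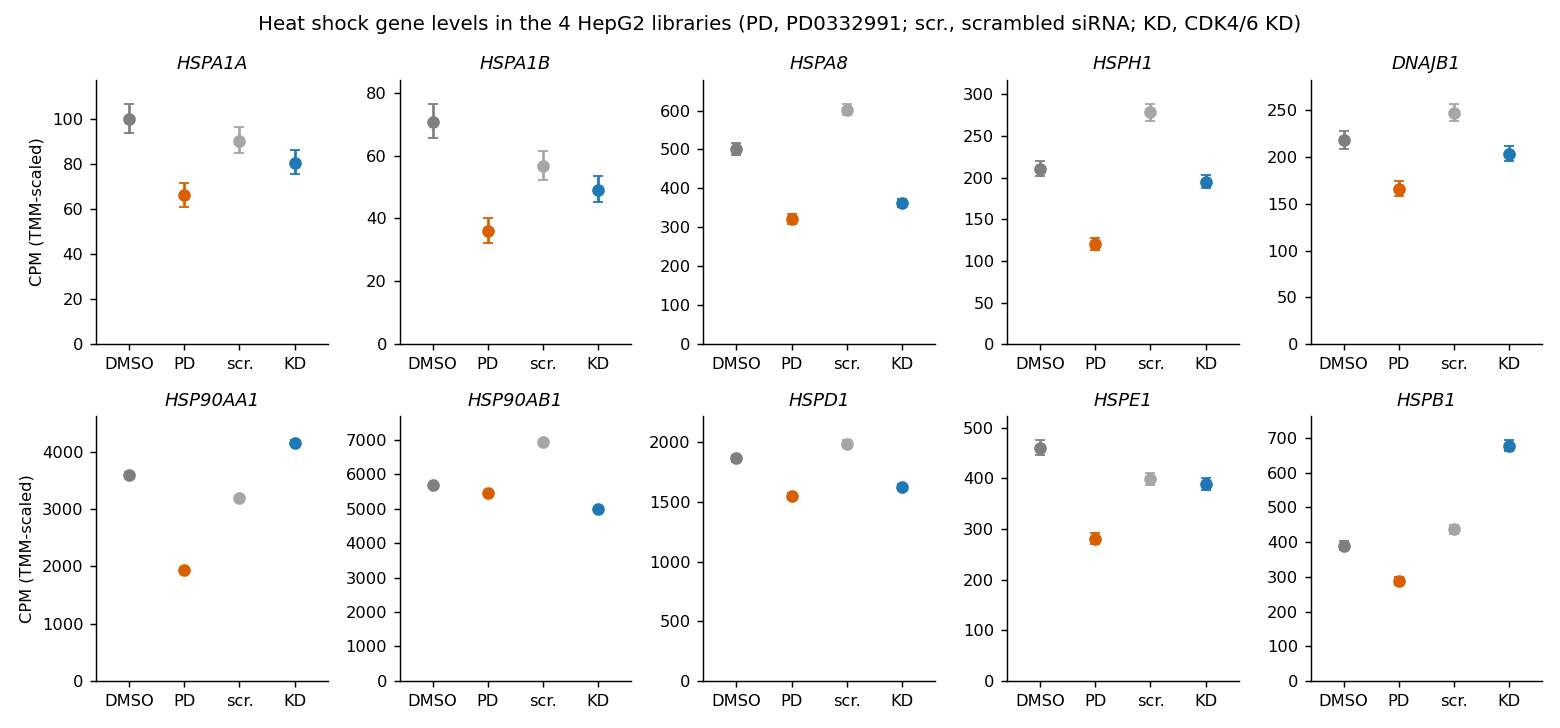
Level of each of the 10 genes in CPM (vertical axis, TMM-scaled, starting at 0) in the 4 libraries (horizontal axis), 1 point per library with its 95% Poisson counting interval, which is smaller than the point for the most counted genes. PD0332991 is the lowest point in 9 of the 10 panels, and in the HSP90AB1 panel the lowest is CDK4/6 KD.

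The HSP90 pair gave most of the members' reads, between 70.9% and 72.3% in each library. HSP90AA1 (chr14:102080738-102139699, minus strand), the more stress-responsive HSP90, was at 3601 CPM in DMSO, 1930 in PD0332991, 3191 in scrambled siRNA and 4160.1 in CDK4/6 KD. HSP90AB1 (chr6:44246166-44253888, plus strand), the constitutive HSP90, was at 5685, 5453, 6928 and 4987 CPM in the same order. The pair thus differed in which library was extreme: HSP90AA1 was lowest with PD0332991 and highest with CDK4/6 KD, and HSP90AB1 was lowest with CDK4/6 KD and highest with scrambled siRNA.

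HSP90AA1 was 0.536-fold (0.526 to 0.546) in PD0332991 to DMSO, below all but 4.85% of the well-counted genes, and 1.30-fold (1.29 to 1.32) in CDK4/6 KD to scrambled siRNA. It was therefore called lower with the drug and, without reaching the call, was higher with the knockdown. Exchanging the control libraries left both directions in place, at 0.605-fold (0.594 to 0.616) for PD0332991 to scrambled siRNA and 1.16-fold (1.14 to 1.17) for CDK4/6 KD to DMSO. HSP90AB1 was 0.959-fold (0.947 to 0.971) with PD0332991 and 0.720-fold (0.712 to 0.728) with CDK4/6 KD, and neither was called. Under quantile normalization the direction of HSP90AB1 with PD0332991 flipped, to a log2 fold change of 0.23.

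The read ratio of HSP90AA1 to HSP90AB1 within a library was 0.634 (0.625 to 0.642) in DMSO and 0.354 (0.348 to 0.360) in PD0332991. It was 0.461 (0.455 to 0.467) in scrambled siRNA and 0.834 (0.824 to 0.844) in CDK4/6 KD. All 4 intervals were apart. The ratio was lower with the drug than in its control and higher with the knockdown than in its control, and the control libraries lay between these extremes. The pairs for such ratios were chosen after the counts were seen.

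**Figure D3:**
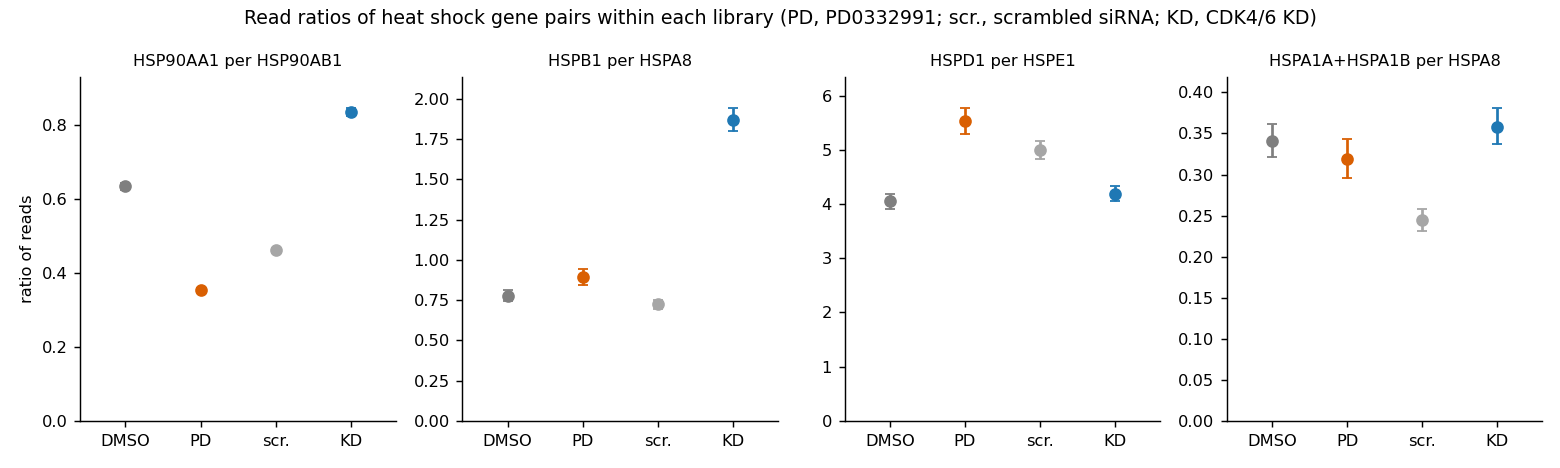
Reads of 1 gene or gene pair per read of another (vertical axes, starting at 0) within each of the 4 libraries (horizontal axes), with 95% counting intervals. HSP90AA1 per HSP90AB1 is lowest with PD0332991 (0.354) and highest with CDK4/6 KD (0.834), and HSPB1 per HSPA8 is highest with CDK4/6 KD (1.87).

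HSPD1 and HSPE1 encode the mitochondrial HSP60 barrel and its HSP10 lid from a shared start region on chromosome 2 (chr2:197486581-197516737, minus strand, and chr2:197499994-197503457, plus strand). HSPD1 was at 1866 CPM in DMSO, 1550 in PD0332991, 1987 in scrambled siRNA and 1627 in CDK4/6 KD, the narrowest span of the 10 genes at 1.28-fold. HSPE1 was at 461, 281, 398 and 389 CPM in the same order, with scrambled siRNA and CDK4/6 KD overlapping. HSPD1 had the same size of difference in both comparisons, 0.831-fold (0.812 to 0.849) and 0.819-fold (0.803 to 0.835), and was not called. HSPE1 was called lower with PD0332991 at 0.609-fold (0.580 to 0.640), but against scrambled siRNA the drug library was at 0.705-fold (0.671 to 0.741), which does not pass the call. It was 0.978-fold (0.937 to 1.02) with CDK4/6 KD, an interval that includes 1.

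For each HSPE1 read there were 4.05 HSPD1 reads in DMSO (3.92 to 4.19), 5.52 in PD0332991 (5.29 to 5.76), 4.99 in scrambled siRNA (4.83 to 5.16) and 4.18 in CDK4/6 KD (4.05 to 4.32). The ratio of these partners was higher in PD0332991 and scrambled siRNA than in DMSO and CDK4/6 KD. HSPE1 is the member whose reads are least certain: 38.5% of the 75-base windows at its 3′ end also occur in HSPE1-MOB4, HSPE1P2, HSPE1P3 or HSPE1P4, and its end overlaps HSPD1 on the other strand.

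HSPB1 (chr7:76302544-76304295, plus strand) encodes HSP27, a small ATP-independent chaperone that holds unfolded proteins and binds actin. It was at 390.2 CPM in DMSO, 287 in PD0332991, 437 in scrambled siRNA and 678 in CDK4/6 KD, the widest span of the 10 genes at 2.36-fold, and no levels overlapped. The CDK4/6 KD library stood above the other 3. The ratio was 1.55-fold (1.495 to 1.61) against scrambled siRNA, higher than 92.1% of the well-counted genes, and 1.74-fold (1.67 to 1.81) against DMSO. With PD0332991 it was 0.735-fold (0.699 to 0.774) and not called. Reads of HSPB1 per HSPA8 read were 0.778 in DMSO, 0.893 in PD0332991, 0.725 in scrambled siRNA and 1.87 (1.80 to 1.94) in CDK4/6 KD. At the HSPB1 3′ end 15.5% of 75-base windows are shared with HSPB1P1 or HSPB1P2. The windows of HSPA1B, HSPA8, HSPH1, DNAJB1, HSP90AA1, HSP90AB1 and HSPD1 matched no transcript of another annotated gene. The 3′ end of HSPA1B nevertheless lies within the same-strand gene AL671762.1.

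**Figure D4:**
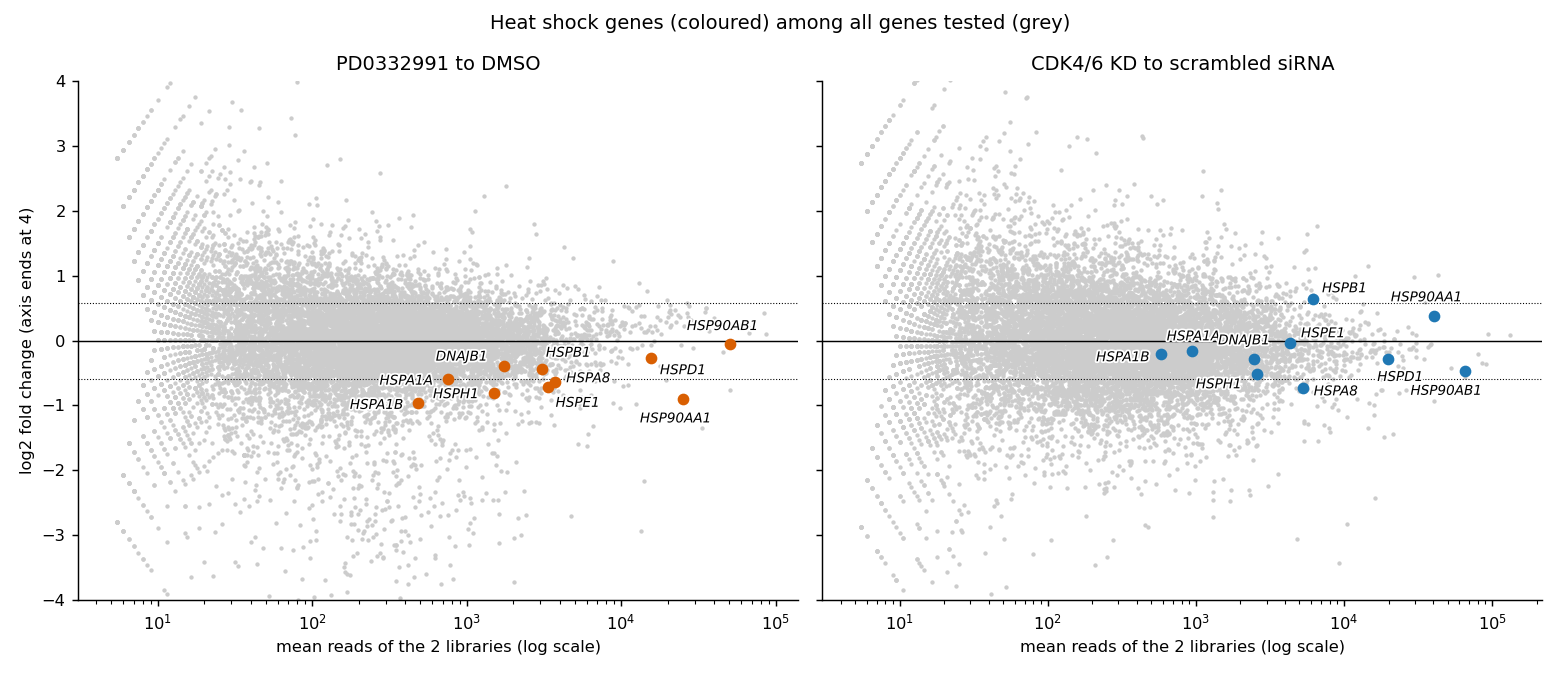
Log2 fold change (vertical axis, drawn to 4 on either side of 0) against mean reads of the 2 libraries (horizontal log axis) for all genes tested (grey) and the 10 heat shock genes (coloured), with dotted lines at 1.5-fold. With PD0332991 the 10 genes lie at or below 0 and 6 are past the lower line; with CDK4/6 KD HSPB1 is past the upper line and HSPA8 past the lower.

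The members together took 1.31% of reads in DMSO, 1.03% in PD0332991, 1.36% in scrambled siRNA and 1.31% in CDK4/6 KD. PD0332991 alone stood below the others. Without the HSP90 pair the summed level was 3818 CPM in DMSO, 2828 in PD0332991, 4098 in scrambled siRNA and 3585 in CDK4/6 KD, the same library being lowest. The interval lay below 1 for all 10 members with PD0332991 and for 7 with CDK4/6 KD, so these 7 were below 1 in both. They were HSPA1A, HSPA1B, HSPA8, HSPH1, DNAJB1, HSP90AB1 and HSPD1, although HSP90AB1 was below 1 in neither under quantile normalization. Over all genes 28.6% and 31.9% had such an interval in the 2 comparisons, and over well-counted genes 40.4% and 45.9%. The share of genes below 1 in both was not counted. The comparisons use separate controls, and the difference between them was not tested.

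Partner genes of the cytosolic machinery were taken as 5 lists of 53 genes, of which 44 had enough reads. With PD0332991 5 were called higher and 11 lower, at a median log2 fold change of -0.30, and with CDK4/6 KD 5 higher and 8 lower, at a median of -0.25. These medians had the sign of the members' own, and that for PD0332991 was nearer to 0. Between the control libraries the same 44 genes had a median of 0.16. Over all genes tested, 15.1% and 17.4% were called lower in these comparisons.

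Of the HSP90 cochaperones, which load clients or set the pace of the ATPase, 5 of 14 were called lower with PD0332991 and 1 higher, and with CDK4/6 KD 3 were lower and 0 higher. FKBP5, an immunophilin of steroid receptor complexes, was at 0.334-fold (0.272 to 0.405) with the drug and 0.427-fold (0.360 to 0.503) with the knockdown. STIP1, the adaptor between HSP70 and HSP90, was at 0.660-fold (0.613 to 0.710) and 0.421-fold (0.391 to 0.453). Both genes were past the call in both comparisons. TTC4 was at 0.310-fold (0.255 to 0.372) with CDK4/6 KD and 0.808-fold with PD0332991, and UNC45A, a myosin chaperone, at 1.504-fold (1.30 to 1.74) with PD0332991. CDC37, which recruits kinases including CDK4, was at 1.11-fold (1.06 to 1.16) and 0.811-fold (0.780 to 0.843), and AHSA1, an activator of the ATPase, at 0.759-fold and 0.800-fold. Neither of these last genes was called.

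HSP70 partners were more mixed. Among 11 J-domain cochaperones that passed the filter, 2 were called higher and 2 lower with PD0332991, and 2 higher and 0 lower with CDK4/6 KD. DNAJC9, a histone-binding partner, was at 0.285-fold (0.242 to 0.333) with the drug, DNAJA1, a farnesylated HSP40, at 0.622-fold (0.566 to 0.682), and DNAJB2 at 1.54-fold (1.28 to 1.87). DNAJC7 was at 1.53-fold (1.45 to 1.62) with CDK4/6 KD, where DNAJA1 was 0.763-fold. Among 10 exchange factors and cofactors, 1 was called higher and 1 lower with PD0332991, BAG1 at 1.56-fold (1.36 to 1.80) and BAG2 at 0.547-fold (0.468 to 0.639). With CDK4/6 KD SGTA was at 2.36-fold (2.02 to 2.76) and BAG6, its partner in handling membrane proteins, at 0.589-fold (0.545 to 0.636), 1 being called higher and 3 lower in all. BAG3, a stress-inducible cofactor, was at 0.735-fold (0.601 to 0.897) and 1.35-fold (1.16 to 1.58) and was not called.

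Of the other HSP70 family genes, HSPA14 was at 0.567-fold (0.469 to 0.682) with PD0332991, the 1 called of 6 considered. HSPA4L was at 0.575-fold (0.501 to 0.659) with CDK4/6 KD, where 1 of 7 was called higher and 2 lower. HSPA6, a strictly heat-inducible HSP70, had 0 reads in DMSO and in PD0332991, 11 in scrambled siRNA and 1 in CDK4/6 KD, a ratio of 0.125 (0.00200 to 0.591) for the latter pair. It was thus near the limit of detection in all 4 libraries. The small heat shock proteins outside the members were low as well, with 3 of 8 considered for PD0332991 (1 called higher, 2 lower) and 2 for CDK4/6 KD (1 higher, 0 lower): CRYAB had 12, 4, 9 and 0 reads and HSPB8 7, 2, 4 and 18 reads in the order DMSO, PD0332991, scrambled siRNA and CDK4/6 KD. HSPB11, an intraflagellar transport protein rather than a chaperone of this class, was at 0.483-fold (0.414 to 0.560) with PD0332991.

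The cytosolic chaperonin TRiC and its helper prefoldin, which fold actin and tubulin, had 4 of 14 genes called lower and 0 higher with PD0332991 at a median log2 fold change of -0.44, and 0 in either direction with CDK4/6 KD at -0.27. VBP1, a prefoldin subunit, was at 0.594-fold (0.506 to 0.695) with PD0332991. In mitochondria, 16 chaperones and proteases had medians of -0.041 and -0.032, the latter 0.072 with total counts as scaling, with 2 higher and 0 lower with PD0332991 and 1 higher and 4 lower with CDK4/6 KD. HSPA9, the mitochondrial HSP70, was at 1.03-fold (0.959 to 1.098) and 0.987-fold (0.930 to 1.05), both intervals including 1. TRAP1, the mitochondrial HSP90, was at 0.868-fold (0.792 to 0.952) and 0.609-fold (0.560 to 0.662), and GRPEL1, the exchange factor of HSPA9, at 0.465-fold (0.427 to 0.505) with CDK4/6 KD. CLPB, a disaggregase, was at 1.75-fold (1.27 to 2.45) with PD0332991, and HTRA2, a protease, at 1.66-fold (1.41 to 1.96) with CDK4/6 KD.

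Of the heat shock factors and their regulators, 5 genes, 2 were called higher and 0 lower with PD0332991, and 2 higher and 1 lower with CDK4/6 KD, at medians of 0.16 and 0.26. The genes called higher were HSF4 and HSF2BP, named after their values were seen, which had 13 to 27 and 18 to 52 reads per library. With PD0332991 they were at 2.04-fold (1.04 to 4.40) and 2.68-fold (1.56 to 4.98). With CDK4/6 KD they were at 1.51-fold (0.730 to 3.32) and 1.53-fold (0.970 to 2.47), both intervals including 1. HSF1, the main stress-activated factor, was at 1.08-fold (0.954 to 1.22) with PD0332991 and was called lower with CDK4/6 KD at 0.642-fold (0.573 to 0.719). Its scrambled siRNA level was itself 1.28-fold (1.15 to 1.44) that of DMSO. The level was 54.8 CPM in DMSO, 70.5 in scrambled siRNA and 45.2 in CDK4/6 KD. HSF2 was at 1.05-fold (0.928 to 1.20) and 1.19-fold (1.07 to 1.34). These are transcript levels, and HSF1 is regulated largely as a protein.

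The chaperones of the endoplasmic reticulum, 17 genes, had 8 called lower with PD0332991 (15.1% over all genes tested) and 0 higher (16.8%). Their median log2 fold change was -0.57, close to the members' -0.62. With CDK4/6 KD they had 2 higher, 1 lower and a median of 0.22, on the other side of 0 from the members. HSPA5, the reticulum HSP70, was at 0.621-fold (0.604 to 0.638) with the drug and 0.592-fold (0.579 to 0.605) with the knockdown. Its cytosolic relative HSPA8 was likewise below 1 in both. The scrambled siRNA level of HSPA5 was itself 1.38-fold (1.35 to 1.41) that of DMSO. HSPA5 was at 1489 CPM in DMSO and 1217 in CDK4/6 KD. HSP90B1, the reticulum HSP90, was at 0.515-fold (0.499 to 0.531) and 1.20-fold (1.17 to 1.22), in both comparisons on the same side of 1 as HSP90AA1. PDIA4, a disulfide isomerase, was at 0.371-fold (0.344 to 0.400) and 1.54-fold (1.46 to 1.62). Its scrambled siRNA level was itself 0.740-fold (0.699 to 0.783) that of DMSO. Between the control libraries 4 of the 17 reticulum genes were called higher in scrambled siRNA and 0 lower, at a median of 0.25. The largest rise was that of DNAJC10 at 1.67-fold (1.56 to 1.79). Genes of oxidative and metal stress had 6 of 11 called lower with PD0332991 at a median of -0.60 and 7 of 11 lower with CDK4/6 KD at -0.75, with 0 higher in both. Between the control libraries their median was 0.36, from SQSTM1 at 2.74-fold (2.61 to 2.87) to MT1F at 0.389-fold (0.354 to 0.427). SQSTM1, at 0.416-fold with CDK4/6 KD to scrambled siRNA, was at 290 CPM in CDK4/6 KD and 255 in DMSO. The metallothioneins MT1E and MT2A were at 0.369-fold (0.354 to 0.384) and 0.507-fold (0.493 to 0.520) with PD0332991 and at 0.344-fold (0.329 to 0.359) and 0.186-fold (0.181 to 0.192) with CDK4/6 KD.

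**Figure D5:**
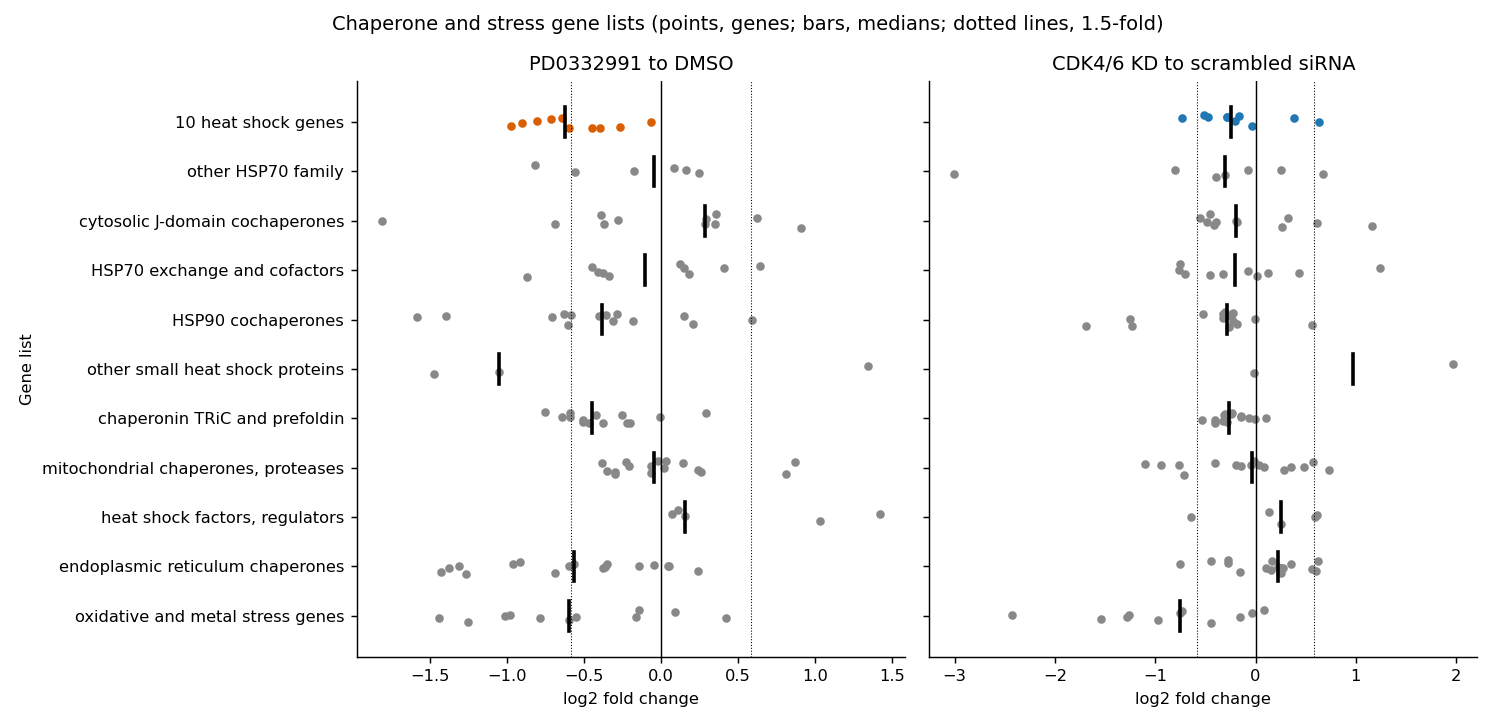
Log2 fold change (horizontal axis) of the 10 heat shock genes and of each gene in 10 chaperone and stress lists (rows), for PD0332991 to DMSO and CDK4/6 KD to scrambled siRNA, with bars at the medians and dotted lines at 1.5-fold. The members' median is -0.62 in the first panel and -0.24 in the second, and the endoplasmic reticulum list has medians of -0.57 and 0.22.

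Between the control libraries, among partner genes with 100 or more reads in 1 of the libraries, the largest rises in 4 of the lists were those of CLPB at 3.20-fold (2.42 to 4.34), CDC37L1 at 1.83-fold (1.53 to 2.19), TCP1, a TRiC subunit, at 1.69-fold (1.64 to 1.73) and HSPA4 at 1.52-fold (1.43 to 1.62) in scrambled siRNA to DMSO. SGTA at 0.567-fold (0.477 to 0.672), HTRA2 at 0.601-fold (0.505 to 0.712) and DNAJC9 at 0.650-fold (0.580 to 0.728) were lower. CLPB, SGTA, HTRA2 and DNAJC9, each called in an inhibition comparison, were thus past 1.5-fold between the controls too. So were GRPEL1, at 1.51-fold (1.39 to 1.64), and TCP1, called at 0.663-fold (0.641 to 0.687) with PD0332991. SQSTM1 and MT1F, given above, were further cases, and not every such gene is listed. No member was past 1.5-fold there, although the intervals of all 10 excluded 1.

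The typical course of the members was taken as the median of their log2 CPM, each centred over the 4 libraries: 0.17 in DMSO, -0.43 in PD0332991, 0.16 in scrambled siRNA and -0.035 in CDK4/6 KD. HSPA1A lay nearest to it (Euclidean distance 0.140) and HSPB1 farthest (0.786). Of 4126 genes averaging 500 reads or more, members included, the nearest outside the members were UBE2A (0.0678), URI1 (0.0804), YWHAQ (0.0900), PTGES3 (0.0974) and PRMT5 (0.102). PTGES3 encodes p23, an HSP90 cochaperone, and URI1 a prefoldin-like protein. The likeness is over 4 libraries only and is a description.

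With the control libraries exchanged, all 10 members were again below 1 in PD0332991 to scrambled siRNA, from 0.433-fold (0.404 to 0.464) for HSPH1 to 0.787-fold (0.778 to 0.796) for HSP90AB1. In CDK4/6 KD to DMSO, HSP90AA1 and HSPB1 were above 1 and the other 8 ran from 0.695-fold (0.619 to 0.779) for HSPA1B to 0.933-fold (0.878 to 0.991) for DNAJB1. With PD0332991 the calls of HSPA1A and HSPE1 were lost and HSPB1, at 0.657-fold (0.626 to 0.689), passed 1.5-fold, so that 5 members were called in place of 6. With CDK4/6 KD the call of HSPA8 was lost. The shares of all genes called or below 1 in these exchanged pairs were not counted, so the members' counts there have no background.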

How the data were processed

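Total RNA was extracted with TRIzol, and 500 ng per sample went into QuantSeq 3′ libraries primed at the poly(A) tail and sequenced as single-end 75-base reads, so that reads fall near transcript 3′ ends. The values deposited by the authors are unnormalized counts of reads on each gene symbol, 1 table per library. The submitters' processing notes name Bowtie2, edgeR and hg19; the counter, annotation and strand setting are not given in the sources used here. The tables list 25737 entries, and 286 repeated symbols were summed to leave 24462 genes.

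Library sizes were corrected with TMM factors (edgeR 4.0.16, R 4.3.3). Fold changes used a pseudocount of 0.5 reads and a filter of 10 reads in 1 of the libraries compared, and Clopper-Pearson and Poisson intervals came from scipy 1.17.1. No molecular identifiers are named, so intervals cover counting error only. The quasi-likelihood test of edgeR needs replicates and was not run. Alternatives were DESeq2 1.42.0 size factors, total counts, quantile normalization (limma 3.58.1), a pseudocount of 5, the most counted entry of a symbol, the other arm's control, filters of 50 and 500 reads, 2-fold calls, and calls only where the whole interval was past 1.5-fold. The fold changes and intervals were tried on simulated counts that held counting error alone, with library sizes taken as known. Such a trial tests neither the scaling nor the spread between cultures.

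Named were the members, CDK4, CDK6, in each chaperone or stress list the largest rise and fall past 1.5-fold with at least 100 reads in 1 library, the 14 further chaperone and factor genes given whatever their values (HSF1, HSF2, HSPA9, TRAP1, HSPA5, HSP90B1, CDC37, STIP1, AHSA1, BAG3, DNAJA1, HSPA6, HSPB8, CRYAB), and the 5 genes nearest the members' median profile. Members and lists were chosen with earlier results of these data known. Gene positions and shared windows come from GENCODE 29 (GRCh38), not the authors' build, and were used for description only.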

Additional observations from a re-analysis of the deposited data

Results flagged for a closer look

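HSP90AA1 was 0.536-fold in PD0332991 to DMSO and 1.30-fold in CDK4/6 KD to scrambled siRNA, opposite directions under the 2 ways of inhibiting CDK4/6. HSPB1 likewise was 0.735-fold and 1.55-fold. With 1 library per condition the difference between the comparisons was not tested. The directions stayed opposite with the control libraries exchanged, at 0.605-fold and 1.16-fold for HSP90AA1 and 0.657-fold and 1.74-fold for HSPB1.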

How the results depend on the processing

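With PD0332991, 6 members were called lower, and between 4 and 6 under every scaling, pseudocount, entry, control and whole-interval alternative, while at 2-fold the count was 0. With CDK4/6 KD the 1 member called higher, HSPB1, became 0 at 2-fold and 0 where the whole interval had to pass 1.5-fold. The 1 called lower, HSPA8, became 0 at 2-fold and 0 against the other arm's control. The members' median log2 fold change moved from -0.24 to -0.089 in CDK4/6 KD with quantile normalization, and from 0.13 to 0.062 with total counts and -0.015 with quantile normalization in scrambled siRNA to DMSO. Total counts moved the median of all genes by 0.10 in CDK4/6 KD, and HSPE1 then stood at 0.072. Quantile normalization gave HSPE1 0.054 and HSP90AB1 0 in that comparison, since its rank by reads was 7 in both libraries, and -0.062 between the controls. The cause of the other moves was not tested. DESeq2's size factors, a pseudocount of 5 and the most counted entry changed no member's direction. No paired analysis was possible because the labels give no replicate numbers and each group has 1 library, and no library could be left out. Depth was no limit for the members, which had at least 329 reads, but it was for HSPA6, HSPB8 and CRYAB.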
